A study of Mus musculus with 22 samples.

Results

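The collagen genes of mouse, read as every row whose symbol was Col, a number, the letter a and a number, filled 44 rows in each of the count tables of striatum and white adipose tissue (WAT). Those with a mean normalised count above 10 (a count scaled by the effective size of its library to the mean size within the tissue) were tested. That left 33 collagens of 15827 genes tested in striatum and 32 of 17928 in WAT, with 25 tested in both tissues, 8 in striatum alone and 7 in WAT alone. They were grouped as fibrillar (9 tested in each tissue of 11 in the tables), basement membrane (8 in striatum and 7 in WAT of 8) and other types (16 in each tissue of 25). Col2a1, Col8a2, Col9a1 and Col10a1 passed in neither tissue. The members nearest to the limit were Col9a2 (mean of 10.1) and Col14a1 (9.9) in striatum and Col13a1 (14.7) and Col9a3 (9.86) in WAT, the first of each pair inside and the second outside. The 22 RNA-seq libraries came, by their labels, from wild-type C57BL/6J males aged 8 weeks. Control libraries came from mice made hypothyroid with propylthiouracil (PTU, an inhibitor of thyroid hormone synthesis) for 2 weeks, with 2 libraries in striatum (replicates 3 and 6) and 4 in WAT. The other libraries were sampled after thyroid hormone (TH), given per the study as a single injection, at 12 h and 24 h in striatum and at 6 h and 24 h in WAT, with 4 libraries each. Labels of the TH libraries do not mention PTU, and the study's overview lists the PTU diet for WAT and no hypothyroidism procedure for striatum. The state of the striatum controls thus rests on their labels, and whether the TH animals of striatum had PTU is not given. If they had none, effects of the hormone and of the absence of PTU cannot be told apart in striatum. No label says that replicates were separate animals, so p-values measure the spread between these libraries, which may be technical in part or in full. In striatum, the PTU and the 12 h groups each held libraries with and without counts of Y-linked genes, as given below. The libraries of each of these groups thus did not all come from a single animal.

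Collagens are secreted as triple helices of alpha chains, are cut and cross-linked outside the cell, and form the bulk of the extracellular matrix. Types I, III and V build fibrils. Type IV forms the sheet of basement membranes around vessels and adipocytes, to which the multiplexins XV and XVIII attach, and type VI forms beaded filaments close to the cell. In WAT these proteins come mainly from fibroblasts and adipocytes and set how far an adipocyte can expand, whereas brain parenchyma holds little fibrillar collagen outside vessels and meninges. Thyroid hormone acts on nuclear receptors that bind, with a partner receptor, pairs of hexamers spaced by a few bases.

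RefSeq promoter windows (GRCm38.p6) of 250 bases before to 50 after the start were at hand for 35 of the 44 collagens, 38 windows in all. The 120 bases before the start are shown for the 7 collagens that were called in WAT at 24 h, that had 1 window and whose 120 bases held no annotated exon, because these genes changed in WAT, Col27a1 upwards and the other 6 downwards. Capitals mark, on either strand, the letters GGGCGG of a GC box, the letters TATAAA of a TATA box, the CCAAT box, and the hexamer AGGTCA. Their positions are chr4:47207892-47208011 (plus strand) for Col15a1, chr1:45311418-45311537 (plus strand) for Col3a1, chr9:20815068-20815187 (minus strand) for Col5a3, chr1:90843972-90844091 (minus strand) for Col6a3, chr16:57754738-57754857 (minus strand) for Col8a1, chr6:8192618-8192737 (minus strand) for Col28a1 and chr4:63215292-63215411 (plus strand) for Col27a1.
Col15a1: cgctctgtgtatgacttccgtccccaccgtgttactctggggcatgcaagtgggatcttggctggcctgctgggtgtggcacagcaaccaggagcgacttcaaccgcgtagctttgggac
Col3a1: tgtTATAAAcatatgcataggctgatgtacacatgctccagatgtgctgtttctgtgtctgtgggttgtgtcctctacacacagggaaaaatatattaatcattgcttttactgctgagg
Col5a3: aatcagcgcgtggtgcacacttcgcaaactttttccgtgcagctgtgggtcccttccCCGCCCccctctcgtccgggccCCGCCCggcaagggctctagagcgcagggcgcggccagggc
Col6a3: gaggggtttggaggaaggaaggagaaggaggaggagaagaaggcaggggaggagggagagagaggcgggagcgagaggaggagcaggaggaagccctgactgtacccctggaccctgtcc
Col8a1: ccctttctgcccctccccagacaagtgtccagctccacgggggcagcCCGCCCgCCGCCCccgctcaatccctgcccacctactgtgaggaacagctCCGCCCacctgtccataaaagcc
Col28a1: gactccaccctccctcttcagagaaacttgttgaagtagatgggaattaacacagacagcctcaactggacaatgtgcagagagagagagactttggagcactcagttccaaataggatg
Col27a1: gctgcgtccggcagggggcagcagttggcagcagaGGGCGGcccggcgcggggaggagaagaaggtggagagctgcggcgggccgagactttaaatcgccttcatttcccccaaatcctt

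No motif lay in the windows shown for Col15a1, Col6a3 and Col28a1, and Col5a3, Col8a1 and Col27a1 held GC boxes. Col3a1 held the letters TATAAA, at the end of its window furthest from the start. Over the full length of these windows, a GC box was found in 23 of the 38 collagen promoters and in 35.7% of all 32851 promoters. The CCAAT box was in 13 of 38 against 37.4%, the TATA box in 5 against 13.6%, and the AGGTCA hexamer, the half-site of nuclear receptors, in 8 against 16.3%. The full repeat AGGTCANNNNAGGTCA was in 0 collagen promoters and in 0.0152% of all promoters. At so low a share this count says nothing about the collagens. The study assigned receptor sites to genes over distances far longer than these windows and found a large fraction of them in introns. A match is a description of letters and not of a bound site. The genes of the main type IV chains, Col4a1 and Col4a2, lie head to head on chromosome 8 and their first exons overlap by 22 bases (GENCODE M21, chr8:11312805-11312826), which are shown in the direction of Col4a2, with the GC box in capitals, because the ratio of these chains is described further on.
Col4a2 with Col4a1: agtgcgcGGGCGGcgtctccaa

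Collagen rows took 0.267%, 0.616%, 0.489% and 0.358% of all counts in the 4 WAT libraries with PTU, 0.38%, 0.351%, 0.275% and 0.278% at 6 h and 0.268%, 0.321%, 0.316% and 0.266% at 24 h. The PTU libraries of WAT thus spanned more than the TH libraries, with replicate 2 the highest of all 12 and replicate 1 among the lowest, and the groups overlapped. In striatum the share was 0.0706% to 0.0738% with PTU, 0.0563% to 0.0687% at 12 h and 0.0597% to 0.0677% at 24 h. Per kb of exon and per M of effective library size, the highest level in WAT with PTU was that of Col3a1, the chain of type III, at 121 (libraries from 47.7 to 203), followed by Col4a1 at 85.9 (65.9 to 102), Col1a1 at 69.7 (41.4 to 109.9) and Col4a2 at 57.5 (41.6 to 67.5). These ranges overlap, so the order of the 4 is not fixed by the libraries. The order differed in striatum, where Col6a1, a chain of type VI, was first at 44.9 (43.6 to 46.2) and Col4a1 second at 13.8 (13.2 to 14.3), with no overlap. Col4a2 at 8.99, Col6a2 at 6.51 and Col25a1, a transmembrane collagen of neurons, at 6.42 came next, and the fibrillar Col1a1 was at 2.26 and Col3a1 at 1.12 on the same scale.

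**Figure D1:**
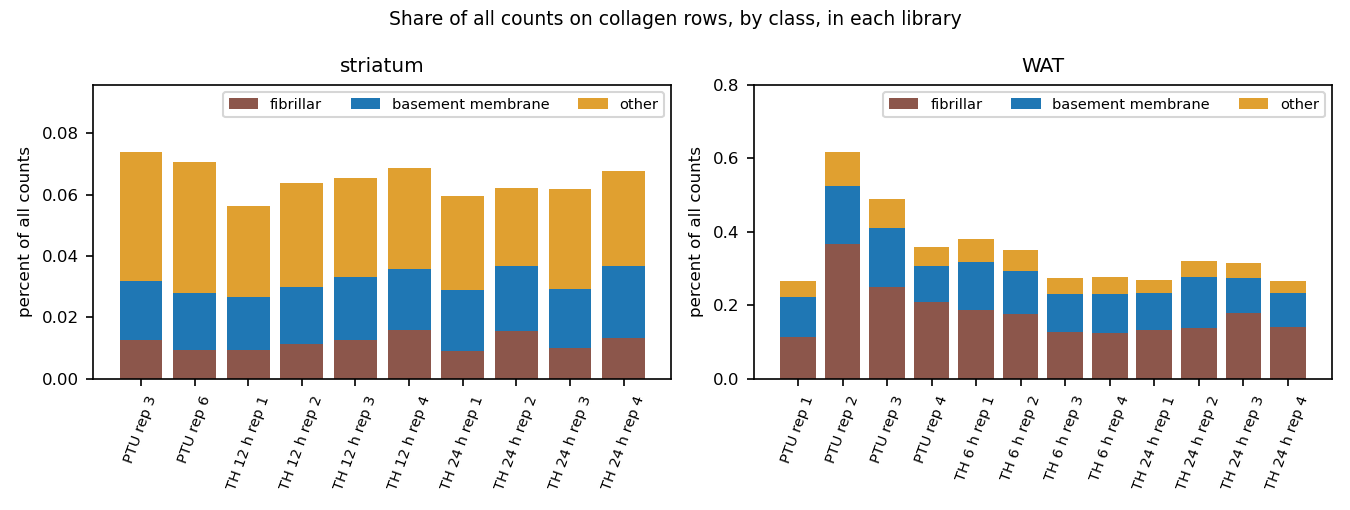
Percent of all counts (vertical axis) that fell on collagen rows in each library (horizontal axis), stacked by class, for striatum and WAT on separate scales. WAT libraries lie between 0.266% and 0.616% with fibrillar and basement membrane chains as the main parts, and striatum libraries between 0.0563% and 0.0738% with the other types as the main part.

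Some libraries stood apart and bear on what follows. Totals were 8.06 to 10.2 M counts in the striatum libraries and 17.3 to 27 M in the WAT libraries, so a gene of like level was counted more precisely in WAT. In striatum, PTU replicate 3 and TH 12 h replicates 2 to 4 held 856 to 1056 normalised counts of 4 Y-linked genes (Ddx3y, Eif2s3y, Kdm5d and Uty), while the remaining 6 libraries, among them all 4 at 24 h, held at most 6.84, although all are labelled male. TH 24 h replicate 2 had a sum of 2858 over 9 markers of striatal projection neurons, against 21722 to 57673 in the other 9 striatum libraries, and the highest sum over 6 markers of cortical excitatory neurons (23986). In WAT, the sum over 8 skeletal muscle genes ran from 919 to 489024 across the 12 libraries and that over 7 genes of stratified epithelium from 191 to 3203. The 8 adipocyte markers were present in every WAT library, with sums of 409763 to 517969 with PTU, 358843 to 423694 at 6 h and 252621 to 368455 at 24 h. In bulk tissue, fewer cells of a type and less RNA per cell cannot be told apart.

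In WAT at 24 h after TH, 11 of the 32 collagens were lower than with PTU and 1 was higher, whereas 9.62% of all genes tested were called lower and 7.45% higher (17.1% in either direction; edgeR's quasi-likelihood test with Benjamini-Hochberg adjustment). The lower collagens came from all 3 classes and were Col15a1 and Col18a1 of the basement membrane, Col3a1 and Col5a3 among the fibrillar types, and Col6a1, Col6a2, Col6a3, Col6a6, Col8a1, Col16a1 and Col28a1 among the others. The fibrillar Col27a1 was higher. The median log2 change was -0.43 over the 32 collagens and 0.00 over all genes tested, and 24 of the 32 had a negative change. By class, 3 of 9 fibrillar, 2 of 7 basement membrane and 7 of 16 other collagens were called, with median log2 changes of -0.29, -0.29 and -0.72. The values of the PTU and 24 h groups did not overlap for 8 of the 32 collagens, against 19.3% of all genes tested.

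**Figure D2:**
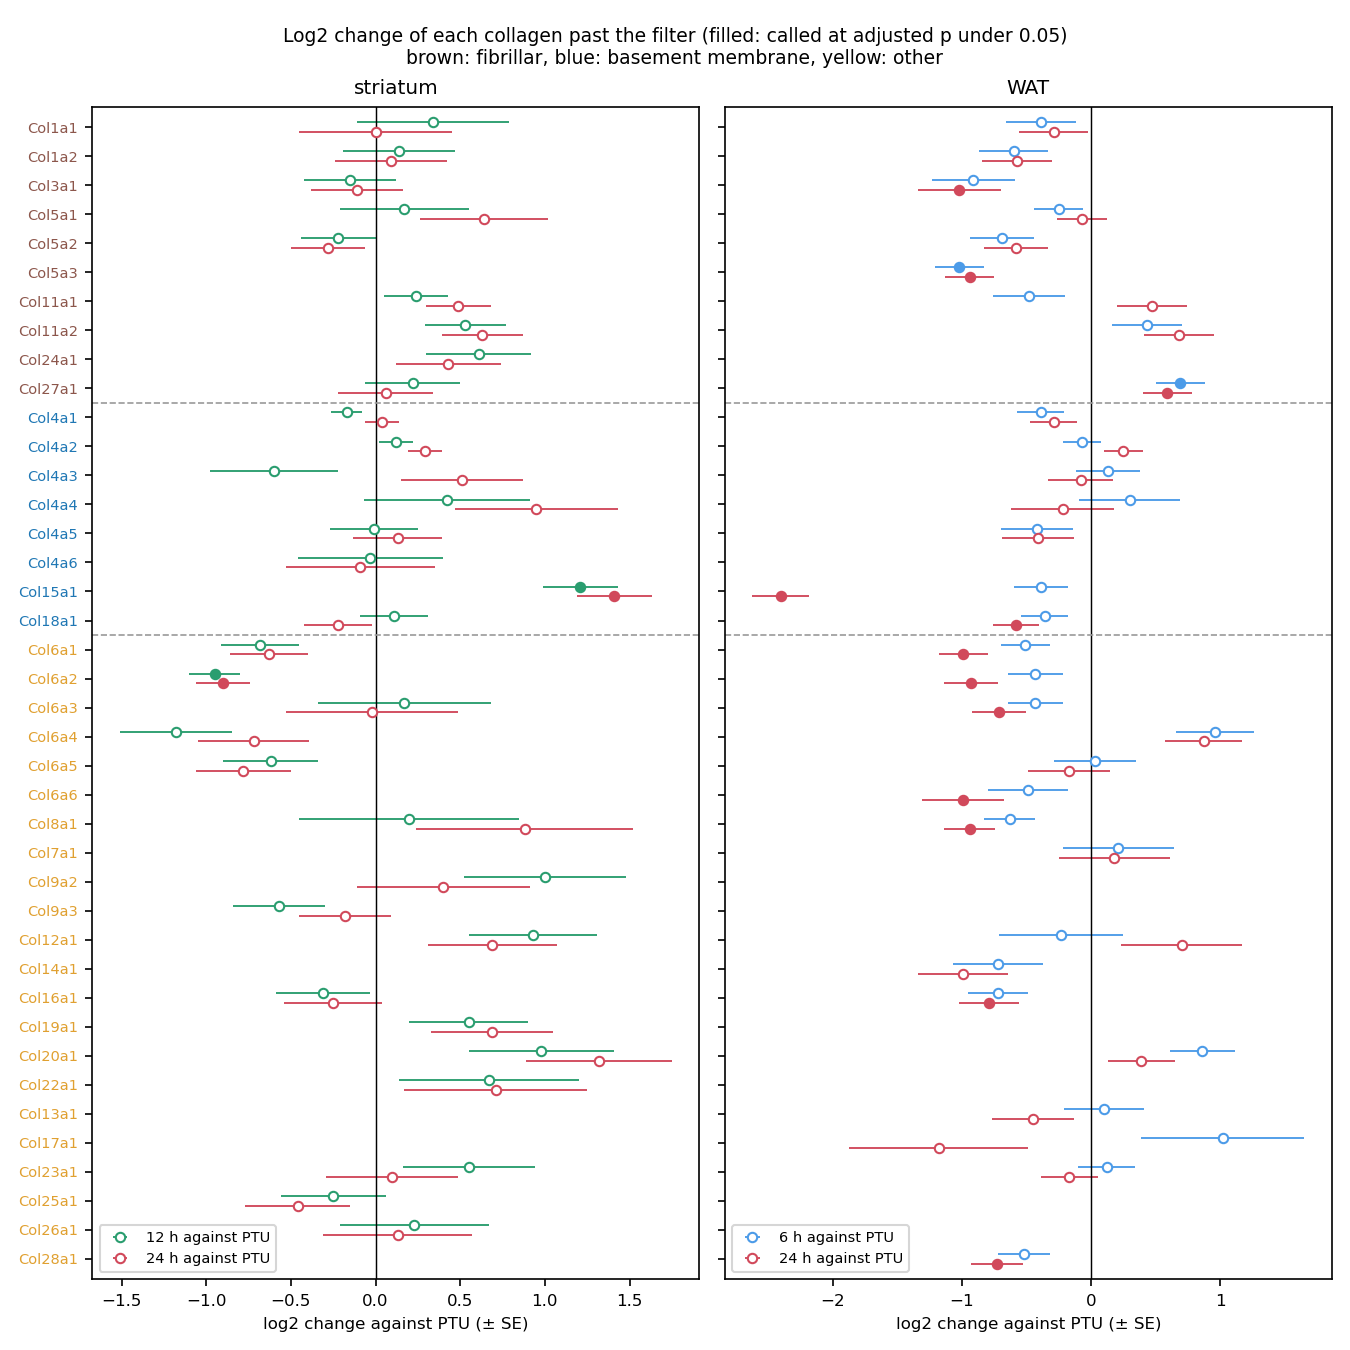
Log2 change against PTU (horizontal axis, ± SE from edgeR) of each collagen past the filter (vertical axis), in striatum at 12 h and 24 h and in WAT at 6 h and 24 h, with filled points called at an adjusted p under 0.05 and dashed lines between the classes. In WAT at 24 h 12 points are filled, 11 of them below 0, and Col15a1 lies furthest from 0 at -2.40 in WAT and at 1.41 in striatum.

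Col15a1, a multiplexin that ties basement membranes to the matrix beneath, changed most. Its gene lies at chr4:47208161-47313167 on the plus strand (GENCODE M21), where an antisense gene, Gm12426, shares 14 exonic bases with it. Its normalised counts were 3654, 7913, 6403 and 4614 in the PTU libraries, 5192, 3917, 3739 and 4429.5 at 6 h and 1159, 839, 1161 and 1118 at 24 h. All 4 values at 24 h lay below every PTU value and every 6 h value, and the mean fell to 0.189 of the PTU mean, a log2 change of -2.40 ± 0.22 (SE, adjusted p = 3.33e-05). This held in 12 of 12 fits that left out 1 library. The other multiplexin, Col18a1, whose cleaved end is endostatin, had 996, 1259, 1212 and 621 in the PTU libraries, 879, 803, 728 and 767 at 6 h and 623, 811, 679 and 629.7 at 24 h. PTU replicate 4 lay below all 24 h libraries, so the groups overlapped, and the log2 change was -0.58 ± 0.18 (SE, adjusted p = 0.0466). Its call was kept in 3 of 12 fits with 1 library left out, and its adjusted p reached 0.143 without PTU replicate 2. Of the type IV chains, Col4a1 had 12275, 16355, 15877 and 10561 in the PTU libraries, 11206, 10313, 10343 and 10282 at 6 h and 9477, 15795, 10362 and 9425 at 24 h. Col4a2 had 8313, 9591, 8903 and 5909 in the PTU libraries, 7699.6, 7576, 8058 and 7729.9 at 6 h and 8996, 12305, 9010.3 and 8499 at 24 h. Both were highest at 24 h in replicate 2 and neither was called, with log2 changes of -0.29 ± 0.18 (SE, adjusted p = 0.296) for Col4a1 and 0.25 ± 0.15 (SE, adjusted p = 0.294) for Col4a2. The minor type IV chains past the filter, Col4a3, Col4a4 and Col4a5, had changes of -0.08, -0.22 and -0.41 and were not called.

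Among the fibrillar types, Col5a3, a chain of the minor fibril collagen V, had 3631, 4791, 4458 and 2511 in the PTU libraries, 2468, 1746, 1801 and 1588 at 6 h and 2255, 2004, 1757 and 2006 at 24 h. Every TH library lay below every PTU library at both times, and at 24 h the log2 change was -0.94 ± 0.19 (SE, adjusted p = 0.00576), kept in 12 of 12 fits with 1 library left out. The type III chain Col3a1 had 10049, 42707, 24321 and 24857 in the PTU libraries, 16688, 14273, 11436 and 11668 at 6 h and 11159, 11535, 16005 and 11667 at 24 h. PTU replicate 1 lay below all TH libraries and PTU replicate 2 far above them, and the log2 change of -1.02 ± 0.32 (SE, adjusted p = 0.0482) was called in 1 of 12 of the fits with 1 library left out, its adjusted p reaching 0.166 without PTU replicate 2. For the type I chains, Col1a1 had 5840.1, 15491, 10003 and 7944 in the PTU libraries, 7628, 9000.4, 6891 and 6555 at 6 h and 6078, 7948, 11136 and 6927 at 24 h. Col1a2 had 4489, 13036, 7878 and 7992 in the PTU libraries, 5846, 6738, 4695 and 4779 at 6 h and 4532, 4978, 7376 and 5656 at 24 h. They overlapped between groups and were not called at 24 h, at -0.29 ± 0.27 (SE, adjusted p = 0.479) for Col1a1 and -0.57 ± 0.27 (SE, adjusted p = 0.163) for Col1a2. Col27a1, a fibrillar chain known from cartilage, had 111, 144, 142 and 92.2 in the PTU libraries, 228, 169.7, 149.9 and 241 at 6 h and 173, 168, 179 and 220.2 at 24 h. All TH values lay above all PTU values, with a log2 change of 0.59 ± 0.19 (SE, adjusted p = 0.0451) at 24 h that was kept in 3 of 12 fits with 1 library left out. Col5a1 and Col5a2, the partners of Col5a3 in type V, had changes of -0.07 and -0.58, and Col11a1 and Col11a2 of 0.47 and 0.68, none of them called.

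Of the 6 chains of type VI, 4 were lower in WAT at 24 h. The genes of the chains Col6a1 (chr10:76708792-76726168) and Col6a2 (chr10:76595762-76623630) lie next to each other in tandem on the minus strand. Col6a1 had 3283, 6392, 4925 and 3589 in the PTU libraries, 3516, 3454, 2569 and 3235 at 6 h and 2079.7, 2530.2, 2464 and 2084 at 24 h. Col6a2 had 3445, 7133, 5959 and 3976 in the PTU libraries, 4269, 3793, 3351 and 3817 at 6 h and 2294, 3135, 3048 and 2266 at 24 h. For both chains the 24 h libraries lay below all PTU and all 6 h libraries, with log2 changes of -0.99 ± 0.19 (SE, adjusted p = 0.00425) for Col6a1 and -0.93 ± 0.21 (SE, adjusted p = 0.01) for Col6a2, each kept in 12 of 12 fits with 1 library left out. Col6a3, the large chain whose end is released as endotrophin, had 2776, 5586, 3939.6 and 3119.7 in the PTU libraries, 3075, 3209.6, 2534 and 2588 at 6 h and 2004, 2689, 2859 and 1876 at 24 h. Its groups overlapped by PTU replicate 1 and 24 h replicate 3, at -0.71 ± 0.21 (SE, adjusted p = 0.0351), a call kept in 8 of 12 fits with 1 library left out. Col6a6, an alternative to that chain, had 48.0, 169, 125 and 128 in the PTU libraries, 87.2, 101, 69.6 and 75.5 at 6 h and 48.2, 50.4, 55.2 and 81.9 at 24 h. PTU replicate 1 was again the lowest of all, and the log2 change was -0.99 ± 0.32 (SE, adjusted p = 0.0482), kept in 2 of 12 such fits and with an adjusted p of 0.154 without PTU replicate 2. The alternative chains Col6a4 and Col6a5 were not called, at 0.87 and -0.17.

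Col8a1, a short-chain collagen of vessel walls, had 69.2, 126, 86.6 and 103 in the PTU libraries, 68.2, 46.7, 70.7 and 63.2 at 6 h and 45.3, 54.3, 48.8 and 52.0 at 24 h. No 24 h value reached the PTU range, and the change of -0.94 ± 0.20 (SE, adjusted p = 0.00788) was kept in 12 of 12 fits with 1 library left out. Col28a1, a collagen first known from peripheral nerve, had 87.4, 73.0, 98.4 and 54.1 in the PTU libraries, 59.3, 45.9, 57.8 and 56.7 at 6 h and 53.1, 40.7, 42.5 and 53.1 at 24 h. The lowest PTU value and the highest 24 h values nearly touched, at a log2 change of -0.73 ± 0.20 (SE, adjusted p = 0.0253), kept in 9 of 12 of these fits. Col16a1, which attaches to fibrils, had 106, 189, 167 and 125 in the PTU libraries, 104, 106, 67.5 and 77.2 at 6 h and 73.3, 67.9, 83.8 and 114 at 24 h. Its groups overlapped and the change was -0.79 ± 0.23 (SE, adjusted p = 0.0325), kept in 7 of 12. The other 9 tested members of the class were not called, with log2 changes from -1.18 (Col17a1) to 0.87 (Col6a4). Without PTU replicate 2, 24 h replicate 1 or 24 h replicate 3 the count of collagens called at 24 h was 6, without PTU replicate 3 it was 7, and in a fit of the PTU and 24 h libraries alone it was 6.

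**Figure D3:**
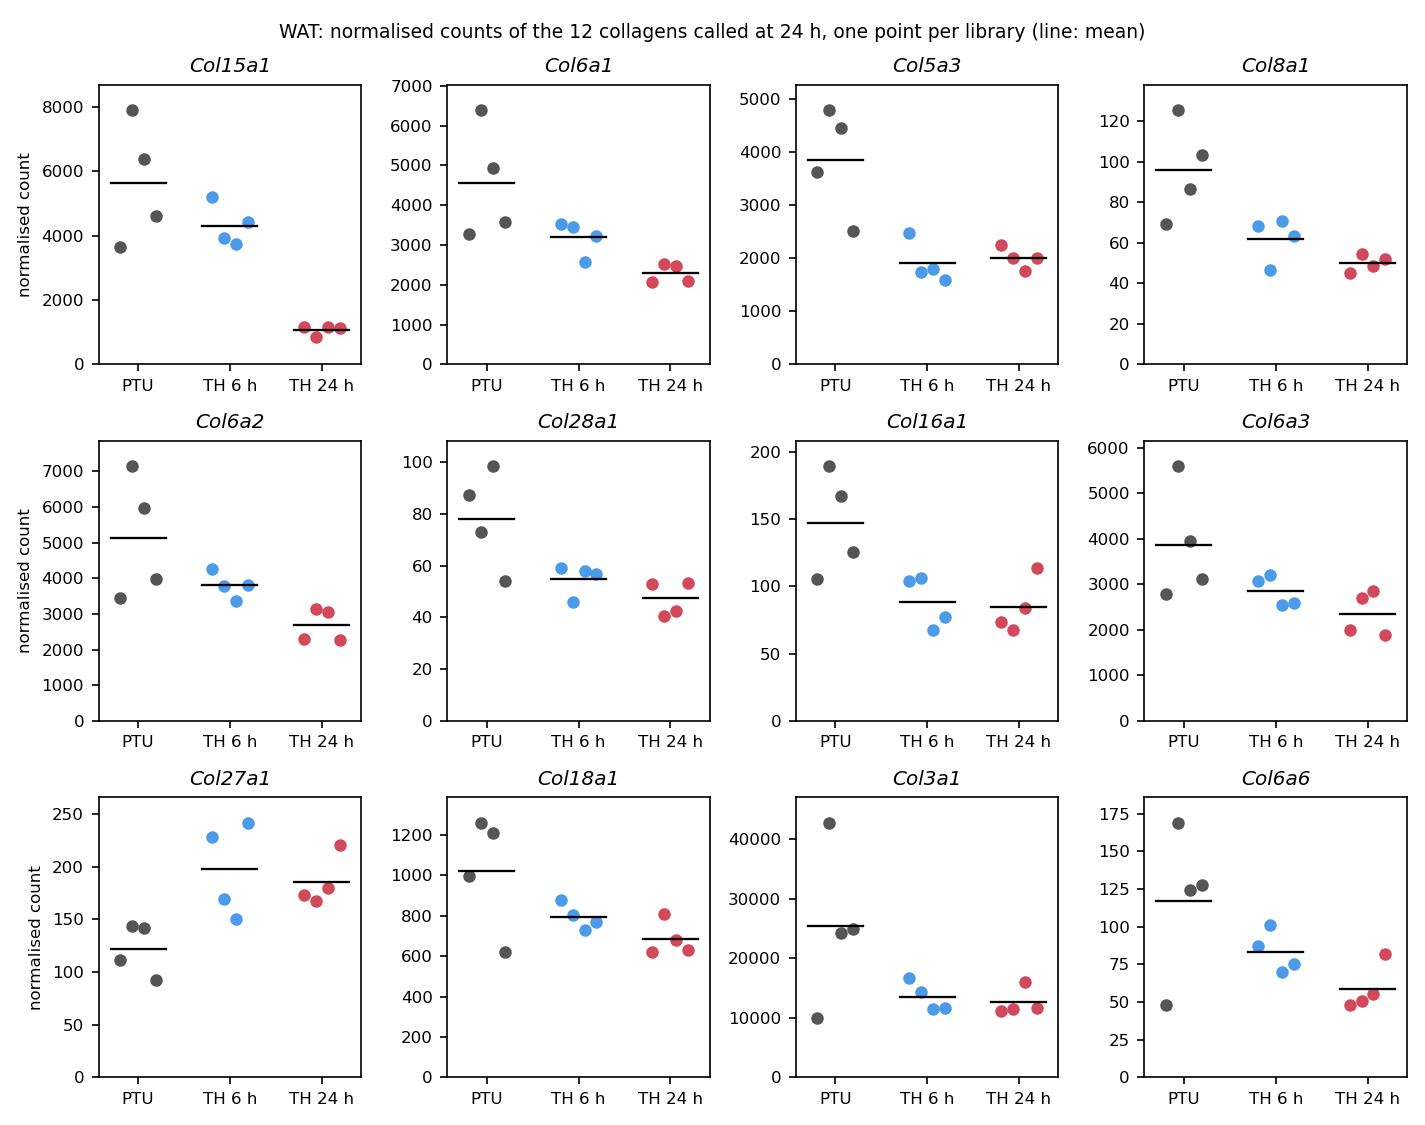
Normalised counts (vertical axes, from 0) in each WAT library of the 12 collagens called at 24 h, by group (horizontal axes), in order of p-value, with a line at the group mean. Col15a1 lies between 839 and 1161 at 24 h and at 3654 or more in every other library, and PTU replicate 2, the second point of its group, is the highest library in 10 of the 12 panels.

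At 6 h in WAT, 2 of the 32 collagens were called, 1 lower and 1 higher, against 7.23% of all genes tested (3.05% lower and 4.18% higher). Both were fibrillar and are given per library above. Col5a3 had a log2 change of -1.02 ± 0.19 (SE, adjusted p = 0.00784), kept in 12 of 12 fits with 1 library left out, and Col27a1 of 0.69 ± 0.19 (SE, adjusted p = 0.0431), kept in 3 of 12. Col15a1 was not called at this time, at -0.39 ± 0.21 (SE, adjusted p = 0.27). The median log2 change of the 32 collagens was -0.39, that of all genes -0.03, and the log2 changes of Col3a1 (-0.91), Col6a1 (-0.51), Col8a1 (-0.63) and Col16a1 (-0.72) were negative but not called. Col20a1 at 0.86 ± 0.25 (SE, adjusted p = 0.0585) and Col6a4 at 0.96 ± 0.30 (SE, adjusted p = 0.0709), both with no overlap with PTU, were positive and not called. By class the medians were -0.48 for 9 fibrillar, -0.36 for 7 basement membrane and -0.33 for 16 other collagens. Groups did not overlap for 4 collagens, against 13.9% of all genes. The count was 8 without PTU replicate 1, was 1 without PTU replicate 2, 6 h replicates 1 or 4 or 24 h replicates 1, 3 or 4, and was 7 with DESeq2.

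Between 6 h and 24 h in WAT, 1 of the 32 collagens was called, against 7.41% of all genes tested (4.35% lower and 3.07% higher). Col15a1 fell by a further 2.01 on the log2 scale (SE 0.22; adjusted p = 0.000294), a call kept in 12 of 12 fits with 1 library left out. Col6a1 and Col6a2 were lower at 24 h in every library, as given above, at log2 changes of -0.48 ± 0.19 (SE, adjusted p = 0.142) and -0.50 ± 0.21 (SE, adjusted p = 0.161). Groups did not overlap for 6 collagens, against 21.8% of all genes. Col17a1, a transmembrane collagen of stratified epithelium, ranged from 14.5 to 169 normalised counts at 6 h, and its highest value was in 6 h replicate 1. The sum over the stratified epithelium markers was 1688 in that library and higher, at 3203, in 6 h replicate 3, where Col17a1 was at 36.4. Its log2 change of -2.20 ± 0.68 (SE, adjusted p = 0.0696) was not called. Of the 6 tested genes of that marker list, 3 were lower at 24 h than at 6 h and 2 lower than with PTU, and the part of that tissue in the Col17a1 values was not tested.

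In striatum, 2 of the 33 collagens were called at 12 h and 2 at 24 h, and the genes were the same: Col15a1 was higher and Col6a2 lower at both times. The background was 0.96% of all genes called at 12 h, with 0.733% above PTU and 0.227% below it. At 24 h it was 0.348%, with 0.316% above and 0.0316% below. Both contrasts share the 2 PTU libraries. By class, 0 of 9 fibrillar, 1 of 8 basement membrane and 1 of 16 other collagens were called at each time, and the log2 changes of all 33 ranged from -1.18 to 1.21 at 12 h and from -0.90 to 1.41 at 24 h. Median log2 changes of the 33 collagens were 0.17 at 12 h and 0.10 at 24 h, and those of all genes 0.01 and 0.02.

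Col15a1 had 48.2 and 64.3 in the PTU libraries, 126, 136, 147 and 113 at 12 h and 116, 182, 132 and 169.5 at 24 h. Each TH library lay above both PTU libraries, at 2.31 times the PTU mean at 12 h and 2.66 times at 24 h, or log2 changes of 1.21 ± 0.22 (SE, adjusted p = 0.0325) and 1.41 ± 0.22 (SE, adjusted p = 0.0273). Among libraries with Y-linked counts it was 48.2 with PTU and 113 to 147 at 12 h, and among those without it was 64.3 with PTU, 126 at 12 h and 116 to 182 at 24 h. Col6a2 had 509 and 510.4 in the PTU libraries, 266, 253, 203 and 331 at 12 h and 279, 304, 256 and 255 at 24 h. Every TH value was below both PTU values, which nearly coincided, with log2 changes of -0.95 ± 0.15 (SE, adjusted p = 0.0244) at 12 h and -0.90 ± 0.16 (SE, adjusted p = 0.0436) at 24 h. Among libraries with Y-linked counts it was 509 with PTU and 203 to 331 at 12 h, and among those without it was 510.4 with PTU, 266 at 12 h and 255 to 304 at 24 h. The calls were kept in 3 of 10 (12 h) and 5 of 10 (24 h) fits with 1 library left out for Col15a1 and in 6 of 10 and 3 of 10 for Col6a2. Leaving out either PTU library ended all 4, the adjusted p without PTU replicate 3 reaching 0.317 and 0.556 for Col15a1 and 0.271 and 0.507 for Col6a2 at 12 h and 24 h. With the Y-linked counts as a covariate none of the 33 collagens was called at either time. In that edgeR fit the adjusted p was 0.0541 and 0.0862 for Col15a1 and 0.0537 and 0.123 for Col6a2 at 12 h and 24 h. The count at 12 h was also 0 without 12 h replicate 2 or 3, 1 without 12 h replicate 1 or 4 or 24 h replicate 4, and 4 without 24 h replicate 2. The count at 24 h was also 0 without 12 h replicate 2 or 24 h replicate 4, 1 without 12 h replicates 1 or 3 or 24 h replicates 1 or 3, and 0 in a fit of the PTU and 24 h libraries alone.

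Col6a1, the most abundant collagen of striatum, had 1798 and 1905 in the PTU libraries, 983, 1139, 1392 and 1099.5 at 12 h and 1304, 734, 1501 and 1263 at 24 h. All TH libraries were below both PTU libraries, with 24 h replicate 2 the lowest, but the log2 changes of -0.68 ± 0.23 (SE, adjusted p = 0.133) at 12 h and -0.63 ± 0.23 (SE, adjusted p = 0.407) at 24 h did not pass. Col6a3 had 46.1 and 50.4 in the PTU libraries, 41.5, 72.4, 38.1 and 65.5 at 12 h and 20.5, 63.9, 22.6 and 83.3 at 24 h. Its values at 24 h fell on either side of the PTU values, at 0.17 ± 0.51 (SE, adjusted p = 0.886) and -0.02 ± 0.51 (SE, adjusted p = 0.995). Col6a4 had changes of -1.18 ± 0.33 (SE, adjusted p = 0.0969) at 12 h and -0.72 ± 0.33 (SE, adjusted p = 0.522) at 24 h, and Col6a5 of -0.62 ± 0.28 (SE, adjusted p = 0.249) and -0.78 ± 0.28 (SE, adjusted p = 0.412), so none of these type VI chains other than Col6a2 passed.

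**Figure D4:**
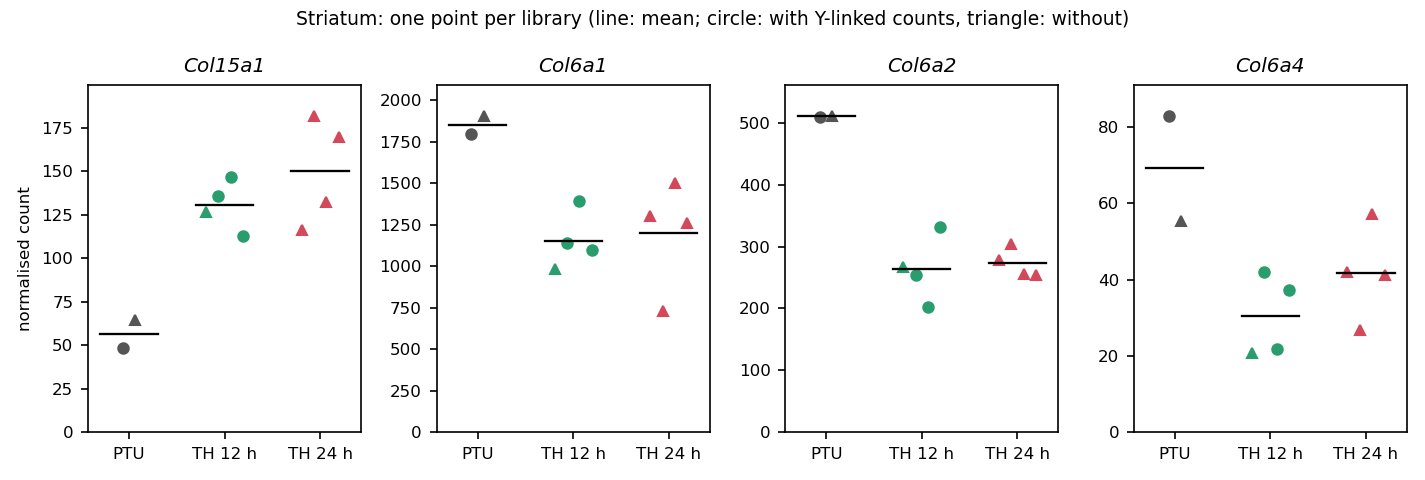
Normalised counts (vertical axes, from 0) of Col15a1, Col6a1, Col6a2 and Col6a4 in each striatum library, by group (horizontal axes), with a line at the group mean, circles for libraries with Y-linked counts and triangles for those without. Every TH point lies above both PTU points for Col15a1 and below both for Col6a1 and Col6a2, while for Col6a4 the 24 h value of 57.1 exceeds the lower PTU value of 55.4.

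The chains of types I and III were not called in striatum. Col1a1 had 175 and 104 in the PTU libraries, 116, 155, 171 and 263 at 12 h and 70.4, 243, 95.2 and 150.5 at 24 h. Col1a2 had 225 and 101 in the PTU libraries, 143, 148, 177 and 250.3 at 12 h and 133, 225, 143 and 194 at 24 h. Col3a1 had 111 and 95.0 in the PTU libraries, 84.0, 67.5, 87.9 and 132 at 12 h and 72.3, 127, 86.9 and 95.3 at 24 h. For these 3 fibrillar chains the PTU values lay within or beside the TH values, 12 h replicate 4 was the highest library for each, and the log2 changes at 24 h were 0.00 ± 0.45 (SE, adjusted p = 0.999), 0.09 ± 0.33 (SE, adjusted p = 0.951) and -0.11 ± 0.27 (SE, adjusted p = 0.923). The same library had the highest sum over 7 markers of leptomeningeal fibroblasts (916, against 208 to 600 in the other 9 libraries), and the part of that in these values was not tested. Col4a1 had 1004 and 929.8 in the PTU libraries, 811, 828, 872 and 917 at 12 h and 949, 1000, 939 and 1087 at 24 h. Col4a2 had 586 and 534 in the PTU libraries, 569, 601, 655 and 608 at 12 h and 663, 684, 627 and 766 at 24 h. Col4a1 at 24 h overlapped the PTU range and Col4a2 at 24 h lay above it, at 0.04 ± 0.10 (SE, adjusted p = 0.923) and 0.29 ± 0.10 (SE, adjusted p = 0.393), neither of which passed. Col18a1 had 59.7 and 64.3 in the PTU libraries, 61.4, 50.9, 83.4 and 71.0 at 12 h and 50.8, 48.2, 53.6 and 60.2 at 24 h. Its values at all times overlapped, at 0.11 ± 0.20 (SE, adjusted p = 0.805) and -0.22 ± 0.20 (SE, adjusted p = 0.766). Groups did not overlap for 10 of the 33 collagens at 12 h, against 36.4% of all genes, and for 9 at 24 h, against 18.2%.

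Between 12 h and 24 h in striatum, 0 of the 33 collagens and 0.0% of all genes were called by edgeR, and DESeq2 called 0 collagens as well. At an unadjusted p under 0.05 there were 2 collagens and 14.6% of all genes. Groups did not overlap for 2 collagens, against 8.3% of all genes. The 2 in both counts were the type IV chains Col4a3 (1.12 ± 0.30 SE, adjusted p = 0.162) and Col4a1 (0.21 ± 0.08 SE, adjusted p = 0.244). All 4 libraries at 24 h and only replicate 1 of those at 12 h lacked Y-linked counts, so the times are nearly split by that state.

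The change at 24 h against PTU was then compared between the tissues in 1 fit of all 22 libraries over the 12787 genes tested in both, in which 5.23% of genes differed (1.7% with a higher change in WAT and 3.53% with a lower one). Of the 25 collagens tested in both tissues, 2 differed. Col15a1 rose in striatum and fell in WAT, and the WAT change minus the striatum change was -3.81 ± 0.36 (SE, adjusted p = 1.11e-05) on the log2 scale, called in 22 of 22 fits with 1 library left out. Col6a4 had 20.2, 15.6, 34.3 and 40.6 in the PTU libraries, 51.5, 74.0, 48.2 and 41.9 at 6 h and 52.1, 61.1, 50.9 and 38.7 at 24 h in WAT and 82.8 and 55.4 in the PTU libraries, 20.8, 42.1, 21.8 and 37.3 at 12 h and 42.0, 26.9, 57.1 and 41.1 at 24 h in striatum. Its change was 0.87 ± 0.30 (SE, adjusted p = 0.0618) in WAT and -0.72 ± 0.33 (SE, adjusted p = 0.522) in striatum, neither called, and the difference of 1.60 ± 0.46 (SE, adjusted p = 0.0468) was kept in 8 of 22 fits with 1 library left out, its adjusted p reaching 0.23 without striatum PTU replicate 3. Col6a2, by contrast, was lower in both tissues, with a difference of -0.03 ± 0.30 (SE, adjusted p = 0.964). Without 24 h replicate 2 of striatum, the library low in projection neuron markers, 1 collagen was called.

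Chains that assemble into 1 molecule were also compared within each library, as the ratio of their counts, for Col1a2 to Col1a1, Col4a2 to Col4a1, Col5a2 to Col5a1, Col6a2 to Col6a1 and Col6a3 to Col6a1. This comparison was added after the counts had been seen. The main type IV protomer holds more Col4a1 than Col4a2 chains. The ratio of Col4a2 to Col4a1 counts in WAT was 0.677, 0.586, 0.561 and 0.56 with PTU, 0.687, 0.735, 0.779 and 0.752 at 6 h and 0.949, 0.779, 0.87 and 0.902 at 24 h. In striatum it was 0.584 and 0.574 with PTU, 0.702, 0.726, 0.752 and 0.663 at 12 h and 0.698, 0.684, 0.668 and 0.705 at 24 h. Every TH library of either tissue lay above every PTU library of that tissue. How often the ratios of other gene pairs part in this way was not computed, for this pair or for those below. The separation is thus not read as particular to these chains. The mean log2 ratio differed from PTU by 0.31 at 6 h and 0.55 at 24 h in WAT, each with p = 0.0286 by the two-sided exact permutation test over libraries, the smallest that 4 against 4 can give, and by 0.29 at 12 h and 0.25 at 24 h in striatum, where p = 0.133 is the smallest that this test can give with 2 against 4. Over the 30 comparisons of 5 chain pairs the Benjamini-Hochberg adjusted values were 0.214 in WAT and 0.357 in striatum, so none passed the correction. Both times share the PTU libraries of a tissue. Reads from the 22 shared bases cannot be assigned to 1 of the 2 genes where counting did not use strand, which was not stated.

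**Figure D5:**
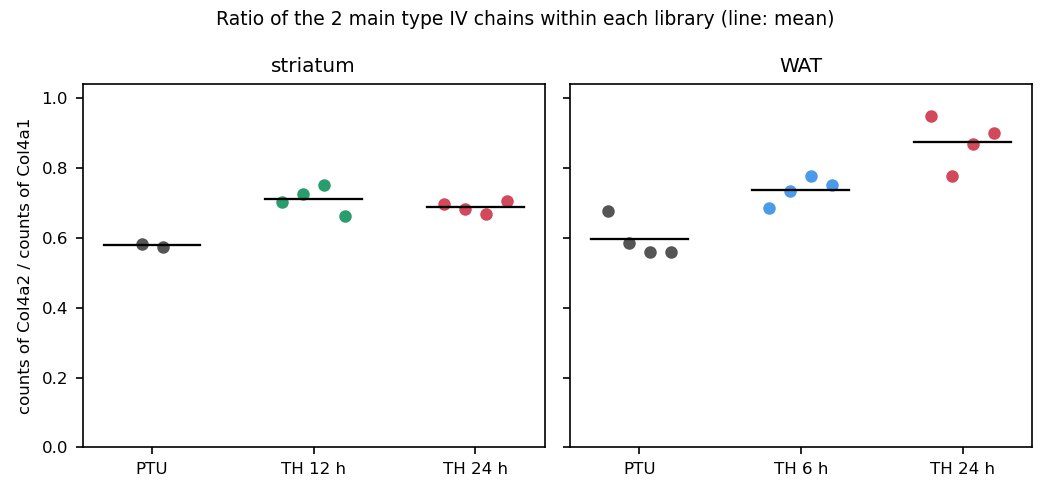
Ratio of Col4a2 to Col4a1 counts (vertical axis, from 0) in each library, by group (horizontal axis), with a line at the mean, for striatum and WAT. In WAT the ratio lies between 0.56 and 0.677 with PTU and between 0.779 and 0.949 at 24 h, and in striatum between 0.574 and 0.584 with PTU and between 0.663 and 0.752 in the TH libraries.

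Of the other pairs, Col6a2 to Col6a1 in WAT was 1.05, 1.12, 1.21 and 1.11 with PTU and 1.1, 1.24, 1.24 and 1.09 at 24 h, with ranges that overlapped. Col6a3 to Col6a1 in WAT was 0.846, 0.874, 0.8 and 0.869 with PTU and 0.964, 1.06, 1.16 and 0.9 at 24 h, with no overlap (log2 difference 0.26, exact permutation p = 0.0286, adjusted 0.214). Col1a2 to Col1a1 in WAT was 0.769, 0.841, 0.788 and 1.01 with PTU and 0.766, 0.749, 0.681 and 0.729 at 6 h, again without overlap (log2 difference -0.21, exact permutation p = 0.0286, adjusted 0.214). Col6a3 to Col6a1 in striatum was 0.0256 and 0.0265 with PTU, 0.0423, 0.0636, 0.0273 and 0.0596 at 12 h and 0.0157, 0.087, 0.0151 and 0.0659 at 24 h. It lay above PTU in all 4 libraries at 12 h (log2 difference 0.81, exact permutation p = 0.133, adjusted 0.357) and on both sides of it at 24 h.

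The counts of partner genes that follow are to be read against the share of all genes called, given beside each. In striatum that share was 0.96% at 12 h and 0.348% at 24 h. Partner calls in striatum rest on the same PTU libraries as the collagen calls, which were lost when either was left out. Whether the partner calls hold without a library or with the Y-linked covariate was not tested. Of 18 tested genes that fold, modify and secrete procollagen, 2 were higher and 1 lower in WAT at 24 h (17.1% of all genes called), a share near that of all genes, with a median log2 change of -0.02. The normalised counts of P4ha1, a catalytic subunit of prolyl 4-hydroxylase, were 553, 551, 412 and 432 in the PTU libraries, 465, 491, 559 and 525 at 6 h and 839, 965, 1271 and 836 at 24 h. Its 24 h libraries lay above all others, at 1.01 ± 0.15 (SE, adjusted p = 0.000803). Serpinh1, the collagen chaperone of the endoplasmic reticulum, had 5161, 6195, 5875 and 3527 in the PTU libraries, 5393, 4367, 5433 and 6082 at 6 h and 8474, 7063, 10706 and 8659 at 24 h. It too was highest in every 24 h library, at 0.75 ± 0.18 (SE, adjusted p = 0.014). Crtap, of the prolyl 3-hydroxylation complex, was lower (-0.43 ± 0.10 SE, adjusted p = 0.0121). At 6 h, 1 was higher and 3 were lower (all genes 4.18% higher and 3.05% lower), with a median of -0.20. The higher gene was the collagen galactosyltransferase Colgalt2 (1.17 ± 0.28 SE, adjusted p = 0.0264). Among the lower were the reticulum channel Tmem38b (-0.71 ± 0.17 SE, adjusted p = 0.0248) and P3h4 (-0.48 ± 0.12 SE, adjusted p = 0.0298). In striatum none of 20 was called at either time, with medians of 0.08 and 0.05.

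Among 12 tested genes of procollagen processing and cross-linking, 3 were higher and 1 lower in WAT at 24 h (all genes 17.1%), and 2 were higher and 1 lower at 6 h (all genes 7.23%), with median log2 changes of 0.39 and -0.17. Loxl1, a lysyl oxidase that cross-links matrix fibres, had 755, 681, 684 and 549.7 in the PTU libraries, 2159, 2417, 2278 and 2157 at 6 h and 2131, 2922, 2190.5 and 2362 at 24 h in WAT. Every TH library lay above every PTU library, with log2 changes of 1.75 ± 0.12 (SE, adjusted p = 5.22e-06) at 6 h and 1.85 ± 0.12 (SE, adjusted p = 3.58e-06) at 24 h. Its relative Loxl3 changed by 0.84 ± 0.23 (SE, adjusted p = 0.0453) and 1.13 ± 0.23 (SE, adjusted p = 0.00575), and the tolloid-like protease Tll1 by -1.0 ± 0.21 (SE, adjusted p = 0.0156) and -0.86 ± 0.21 (SE, adjusted p = 0.0166). Striatum showed 2 of 12 higher at 12 h (0.733% of all genes) and 1 higher at 24 h (0.316% of all genes), with medians of 0.41 and 0.33. There Loxl1 had 34.6 and 34.6 in the PTU libraries, 75.5, 105, 105 and 151 at 12 h and 76.2, 52.7, 81.0 and 96.3 at 24 h. All TH values exceeded the PTU values, with a call at 12 h (1.65 ± 0.31 SE, adjusted p = 0.0371) and none at 24 h (1.15 ± 0.31 SE, adjusted p = 0.213). Adamts2, the protease that removes the amino-terminal propeptide, had 37.7 and 44.5 in the PTU libraries, 100.1, 108, 122 and 117 at 12 h and 86.0, 106, 115 and 86.3 at 24 h in striatum. It was called higher at both times against the same PTU libraries, by 1.44 ± 0.18 (SE, adjusted p = 0.0155) and 1.25 ± 0.18 (SE, adjusted p = 0.025). In WAT its changes of -0.39 ± 0.14 (SE, adjusted p = 0.115) and -0.44 ± 0.14 (SE, adjusted p = 0.0524) were not called.

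Of the 14 tested proteoglycans and glycoproteins that coat or accompany fibrils, 4 were lower and none higher at each time in WAT, where 3.05% of all genes were lower at 6 h and 9.62% at 24 h, with median log2 changes of -0.57 at 6 h and -0.50 at 24 h. Fbn1, which encodes fibrillin-1, changed by -1.17 ± 0.24 (SE, adjusted p = 0.0124) at 6 h and -1.12 ± 0.24 (SE, adjusted p = 0.00752) at 24 h. The small leucine-rich proteoglycans Lum (-1.08 ± 0.21 SE, adjusted p = 0.00396) and Bgn (-1.02 ± 0.18 SE, adjusted p = 0.00305) fell at 24 h and Ogn (-1.07 ± 0.30 SE, adjusted p = 0.0462) and Dcn (-0.91 ± 0.21 SE, adjusted p = 0.024) at 6 h. In striatum none of 12 was called. Basement membrane partners gave 3 higher and 1 lower of 15 at 24 h in WAT (all genes 17.1%) and 2 higher at 6 h (all genes 4.18%). Hspg2, which encodes perlecan, changed by 0.76 ± 0.19 (SE, adjusted p = 0.0353) and 0.69 ± 0.19 (SE, adjusted p = 0.0285), nidogen Nid1 by -0.57 ± 0.14 (SE, adjusted p = 0.0135) at 24 h, and Pxdn, the peroxidase that cross-links type IV collagen, by 0.86 ± 0.15 (SE, adjusted p = 0.00584) at 6 h. Medians of this list were -0.21 and -0.28, and in striatum none of 16 was called.

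Of 14 tested genes of collagen breakdown and its inhibitors, 2 were lower at 6 h (all genes 3.05%) and 3 at 24 h (all genes 9.62%) in WAT and none was higher. Fap, a fibroblast surface protease, changed by -0.98 ± 0.17 (SE, adjusted p = 0.00394) and -1.20 ± 0.17 (SE, adjusted p = 0.000565), the stromelysin Mmp11 by -0.69 ± 0.19 (SE, adjusted p = 0.0456) and -0.68 ± 0.19 (SE, adjusted p = 0.0279), and the collagen uptake receptor Mrc2 by -0.71 ± 0.22 (SE, adjusted p = 0.0437) at 24 h. Of 10 collagen receptors, 1 was higher at 6 h (all genes 4.18%), Ddr1 at 0.58 ± 0.15 (SE, adjusted p = 0.0371), and none was called at 24 h (all genes 17.1%). Of 18 genes of the TGF-beta axis, which controls collagen transcription in fibroblasts, 4 were higher and 2 lower at 24 h (all genes 17.1%) and 1 higher and 2 lower at 6 h (all genes 7.23%). The ligand Tgfb2 changed by -0.75 ± 0.19 (SE, adjusted p = 0.036) and -1.37 ± 0.20 (SE, adjusted p = 0.000781), and the latent TGF-beta binding proteins Ltbp4 by 1.05 ± 0.21 (SE, adjusted p = 0.0114) and 1.18 ± 0.21 (SE, adjusted p = 0.00284), Ltbp1 by -0.58 ± 0.14 (SE, adjusted p = 0.0298) at 6 h and Ltbp2 by 0.83 ± 0.22 (SE, adjusted p = 0.0236) at 24 h. In striatum, Tgfb2 was lower at 24 h (-0.61 ± 0.11 SE, adjusted p = 0.0436), and no other gene of these 3 lists was called.

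Markers of the cells that can make collagen were set beside these results in WAT. The sum over 9 markers of fibroblasts and adipose progenitors was 13992, 27855, 21841 and 18793 with PTU, 15029, 18499, 13971 and 14212 at 6 h and 17169, 17514, 13491 and 20237 at 24 h. PTU replicate 2 was the highest and PTU replicate 1 the lowest of the PTU libraries, the same order as for the share of counts on collagens. The skeletal muscle sums, given below, split these libraries the other way, with replicates 2 and 3 low and replicates 1 and 4 high. At 6 h 3 of the 9 were lower (Clec3b, Fbln1 and Mfap5) and at 24 h 2 (Fbln1 at -0.88 ± 0.28 (SE, adjusted p = 0.0464) and Mfap5 at -1.09 ± 0.25 (SE, adjusted p = 0.0101)), against 3.05% and 9.62% of all genes, the groups' sums overlapped, and no defining marker was at 0. Of 8 adipocyte markers, 0 were called at 6 h and 4 were lower at 24 h (all genes 9.62%). These were Adipoq (-1.17 ± 0.12 SE, adjusted p = 8.42e-05), Cidec (-1.87 ± 0.34 SE, adjusted p = 0.00308), Plin1 (-0.89 ± 0.14 SE, adjusted p = 0.00102) and Pparg (-0.70 ± 0.17 SE, adjusted p = 0.0151). The sums of this list given above were lower in every 24 h library than in any PTU library. Of 10 endothelial markers 1 was lower at 6 h (Cldn5) and 0 were called at 24 h, with sums of 13883 to 20832 with PTU and 12515 to 16186 at 24 h, and of 9 mural markers 1 was higher at 6 h (Cspg4) and 1 lower at 24 h (Rgs5). Of 8 leukocyte markers 1 was higher at 24 h (Itgax), and of 2 tested markers of mesothelium 1 was lower at 24 h (Krt19). That list rests on 1 library, with a sum of 385 in PTU replicate 1 against 64.6 to 69.5 in the other PTU libraries, and Wt1 and Msln were at 0 in at least 1 library. The part of these cells in the collagen changes was not tested. The skeletal muscle sums did not separate the groups. They were 201008, 2041, 3590 and 489024 with PTU, 9956, 919, 91601 and 3096 at 6 h and 166609, 267961, 36474 and 76012.5 at 24 h. Every 24 h library thus lay above PTU replicates 2 and 3, the PTU libraries with the highest share of counts on collagens. The part of muscle in the collagen values was not tested.

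In striatum none of the tested markers of fibroblasts, endothelium, mural cells, leptomeninges, choroid plexus, astrocytes, oligodendrocytes, cortical neurons or projection neurons was called at either time. Sums over the 10 endothelial markers were 2353 and 2236 with PTU, 2189.9, 1939, 2176 and 2095 at 12 h and 2405, 2223, 2350.2 and 2439 at 24 h, and those over the 9 mural markers 3925 and 3735, 3275, 2709, 3113 and 3132 and 3587, 3186, 3385 and 3560.4. The sums over the 9 fibroblast and progenitor markers were 1639 and 1682 with PTU, 1373, 1373, 1367 and 1223 at 12 h and 1504, 1423, 1374 and 1512 at 24 h. The mural and the fibroblast sums of all TH libraries lay below both PTU sums, as did Col6a1 and Col6a2, while Col15a1 lay above. For the most part the fibroblast sums with PTU were Pdgfra, at 998 and 1006. It had 607 to 747 at 12 h and 530 to 849 at 24 h. Dpt and Clec3b of that list were at most 4.89 and 9.89 in striatum, so these sums are not read as a shift of fibroblasts. At 12 h the groups also parted in neuron markers, with projection neuron sums of 21722 to 35321 against 37938 and 55012 with PTU and cortical excitatory sums of 9652 to 15179.7 against 7639 and 4109. The endothelial sums at 12 h and those over 8 leukocyte markers (749 to 973 against 1046 and 1124) lay below both PTU sums as well. Choroid plexus sums were 184 and 289.8 with PTU, 209.6, 117, 59.8 and 146 at 12 h and 132, 53.8, 138 and 100.3 at 24 h. Their part in the collagen values was not tested. Of the 8 adipocyte markers, Lep was at 0 in every striatum library and Adipoq was at 3.36 normalised counts or less.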

How the data were processed

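Libraries of mouse striatum and WAT were prepared with a Lexogen SENSE kit for total RNA and sequenced on an Illumina NextSeq. The authors aligned reads to mm10 with Bowtie2 (2.2.6.2) and deposited raw counts per gene from htseq-count, as whole numbers, 1 table per tissue. Whether strand was used and how reads matching several genes were counted is not given in the sources used here. Date-like gene names (14 rows in striatum and 15 in WAT, at most 0.201% of counts) were dropped. Of the WAT rows, 86 copied another row within 2%, none a collagen. Each tissue was fitted separately with edgeR 4.0.16 (R 4.3.3), TMM scaling and the quasi-likelihood test over its 3 groups, for genes with a mean normalised count above 10. Adjusted p-values are Benjamini-Hochberg over all genes tested, and a gene was called below 0.05. The tissue difference came from 1 fit of 22 libraries. The code was tested on simulated data. Alternatives were DESeq2 1.42.0, other size factors, no filter, fewer groups, a replicate block, a Y-linked covariate and leaving out each library. The members and lists were chosen with earlier results of these data known. Collagens called against PTU, 10 preset collagens, the 3 called partners with the largest change per list and contrast, and called tissue differences are named. The values of 1 such partner are not reported here. Chain ratios were compared by exact permutation over libraries. Same-numbered libraries did not deviate together (lowest and highest r of -0.387 and 0.258 over 6 striatum pairs and of -0.466 and 0.383 over 12 WAT pairs), so the replicate numbers were not treated as pairs.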

Additional observations from a re-analysis of the deposited data

Results flagged for a closer look

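In 10 of 162 groups of 4 libraries, 1 library lay far from the other 3 by Dixon's test, and chance alone flags about 1 in 20 groups. In striatum at 24 h, Col11a2 was at 33.6 normalised counts in replicate 2 (46.4 to 48.9 in the others) and Col4a3 at 26.1 in replicate 4 (17.9 to 19.1 in the others). In WAT at 24 h, replicate 2 stood apart for the type IV chains, with 15795 for Col4a1 (9425 to 10362 in the others) and 12305 for Col4a2 (8499 to 9010.3). The same library had 839 for Col15a1 (1118 to 1161 in the others) and 366 for the fibril-associated Col12a1 (58.7 to 106). Col3a1 was at 16005 in WAT 24 h replicate 3 (11159 to 11667 in the others). In WAT at 6 h, Col4a1 was at 11206 in replicate 1 (10282 to 10343 in the others), Col4a3 at 16.9 in replicate 2 (28.9 to 31.3) and the fibril-associated Col14a1 at 526 in replicate 2 (167 to 218).

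The log2 change at 24 h differed between the tissues by edgeR's quasi-likelihood test of the difference itself for Col15a1, at -3.81 (adjusted p = 1.11e-05), and for Col6a4, at 1.60 (adjusted p = 0.0468), as WAT minus striatum. The second was called in 8 of 22 fits with 1 library left out.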

How the results depend on the processing

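None of the called collagen changes reversed under the alternatives run. The partner and marker genes, and the collagens that were not called, were not followed through these alternatives. Fitting only the groups compared gave 4 collagens called in striatum at 12 h, 0 at 24 h, 1 in WAT at 6 h, 6 at 24 h, 4 between 6 h and 24 h and 1 for the tissue difference. DESeq2 gave 7 in WAT at 6 h and 2 between the times, no filter on low counts gave 2 between the times and 1 for the tissue difference, and the Y-linked covariate gave 0 in striatum at 12 h and at 24 h. With 1 library left out, the count ran from 0 to 4 in striatum at 12 h, from 0 to 2 at 24 h, from 1 to 8 in WAT at 6 h, from 6 to 13 at 24 h, from 1 to 2 between 6 h and 24 h (2 without PTU replicate 1 or 6 h replicate 2) and from 1 to 2 for the tissue difference. The causes were not tested, except that fewer libraries entered the fits with groups or libraries left out. In WAT the median log2 change of the collagens stayed between -0.53 and -0.29 at 24 h and between -0.44 and -0.21 at 6 h over all alternatives, and in striatum between 0.05 and 0.21 at 12 h and between -0.04 and 0.15 at 24 h. The log2 difference of the Col4a2 to Col4a1 ratio from PTU, an alternative set added after seeing the data, ran from 0.51 to 0.62 in WAT at 24 h and from 0.28 to 0.37 at 6 h with 1 library left out.

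The replicate block gave 1 collagen called in WAT at 6 h, 7 at 24 h and 1 between the times, and 0 in striatum between 12 h and 24 h. Since the numbers did not pair the libraries, this is not read as a weaker effect. No paired analysis was possible because the PTU libraries of striatum share only replicate number 3 with the TH libraries, which holds for both striatum comparisons with PTU and for the tissue difference. With 2 control libraries in striatum and 4 in WAT, and about 8 to 27 M counts, collagens near a mean of 10 were measured with an error too large to show small changes.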
